A study of Mus musculus with 11 samples.

Results

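Oxidative phosphorylation is carried out by the respiratory chain complexes I to IV and the ATP synthase, complex V, in the inner mitochondrial membrane. Mouse genes for 58 of their subunits were followed here by gene symbol, 45 of them nuclear and 13 mitochondrially encoded, out of the 30681 genes of the deposited count table. Of these members 56 had a row in the table, and 52 (all 45 nuclear and 7 mitochondrially encoded) had counts high enough to be tested among 16587 genes in all. mt-Nd3 and mt-Atp8 had no row in the table used here and are not analysed here. Of the 52 tested members 0 differed between knockout and wild type past the threshold, against 0% of all genes tested. Among them 47 of the 52 had a log2 fold change above 0, against 50% of all genes tested. These members come from the same libraries and partly moved together, so they are not 52 separate observations. The 8 male libraries hold every knockout library but only wild-type libraries 2 and 5. In them 41 of the 45 nuclear and 1 of the 7 mitochondrially encoded members were above 0.

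Polyadenylated RNA of the hippocampus was sequenced from adult mice at 6 months of age, with 1 hippocampus per library. The 2 groups were 6 libraries labelled as conditional Dclk3 knockout (cKO) and 5 libraries labelled as wild type (WT). Dclk3 encodes a kinase of the doublecortin-like family. Which recombinase was used, which part of the gene it deletes and whether WT mice carried a floxed allele or a recombinase is not stated in the labels. The labels do not say that each library came from a separate animal, and the p-values below reflect spread among these libraries alone, which may be technical.

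Library totals were 24001828 to 35674490 counts. Levels are given in CPM, the usual depth-normalised unit, relative to library totals scaled by the trimmed mean of M values. Dclk3, the targeted gene, was at 15.4, 21.1, 21.1, 25.7, 18.2 and 19.2 CPM in cKO libraries 1 to 6, against 19.6, 21.03, 22.3, 28.1 and 21.1 CPM in WT libraries 1 to 5. The groups overlapped, and the log2 fold change of Dclk3 was -0.15 ± 0.12 (SE), with an adjusted p of 0.727 (edgeR quasi-likelihood test, Benjamini-Hochberg over all genes tested). Every direction below is therefore that of the labels. Xist and Y-linked genes marked all 6 cKO libraries as male, and of the WT libraries marked numbers 1, 3 and 4 as female and numbers 2 and 5 as male, so that genotype and sex could be told apart only within the 8 male libraries. All 8 neuronal markers were detected, with sums of 7068 to 7815 CPM in cKO and 6997 to 7286 CPM in WT, and so were the 3 dentate granule cell and 4 CA pyramidal cell markers.

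As background, complex I takes electrons from NADH and complex II takes them from succinate. Complex III passes them through cytochrome c to complex IV, which reduces oxygen, and the proton gradient built on the way drives complex V. Complex II is wholly nuclear, while the other complexes combine nuclear subunits, imported from the cytosol, with core subunits translated inside the organelle, so that each working complex needs both genomes. Neurons depend on this pathway for the ATP that restores ion gradients after synaptic activity. In bulk tissue fewer cells of a type and less RNA per cell cannot be told apart.

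Both classes of members sat slightly above 0 on the scale of fold changes, without a call. Of the 45 nuclear members 40 had a log2 fold change above 0, with a median of 0.04, and of the 7 tested mitochondrially encoded members all had one, with a median of 0.10. Over all 16587 genes tested the share above 0 was 50% and the median was -7.9e-05. In the 8 male libraries, however, 1 of these 7 mitochondrially encoded members was above 0, with a median of -0.03. That comparison rests on WT 2 and WT 5 as its only WT libraries. All 7 were highest in cKO 1 and lowest in WT 4, so they do not count as 7 separate observations. The 45 nuclear members were not separate observations either. cKO 1 was lowest for 20 of the 45, and 32 were above 0 without cKO 6 but 41 without cKO 1. No member passed the adjusted threshold of 0.05, as for all genes, of which 0% passed. No tested member had an unadjusted p under 0.05 in the edgeR test, against 3.84% of all genes with such a p and a higher level and 5.35% with such a p and a lower level. With cKO 1 left out 6 of the 45 nuclear members had an unadjusted edgeR p under 0.05, beside 2076 of 16534 genes. With WT 2 left out 4 did, beside 1666 of 16808 genes, and with cKO 5 left out 2, beside 1502 of 16545. With WT 1 left out 1 did, beside 1527 of 16734 genes. Each share of members was close to or below that of all genes, and no member was called in these fits. DESeq2 called 0.374% of all genes and no member, with 1 member at an unadjusted p under 0.05, beside 1603 of 16587 genes. In no tested member did the 6 cKO libraries lie wholly above or wholly below the 5 WT libraries, as 0.404% and 0.512% of all genes did. The 95% intervals of the fold changes of the nuclear members, other than the low Cox7c and Atp5l, lay between -0.12 and 0.27, so larger differences lie outside the interval of each of these genes.

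**Figure D1:**
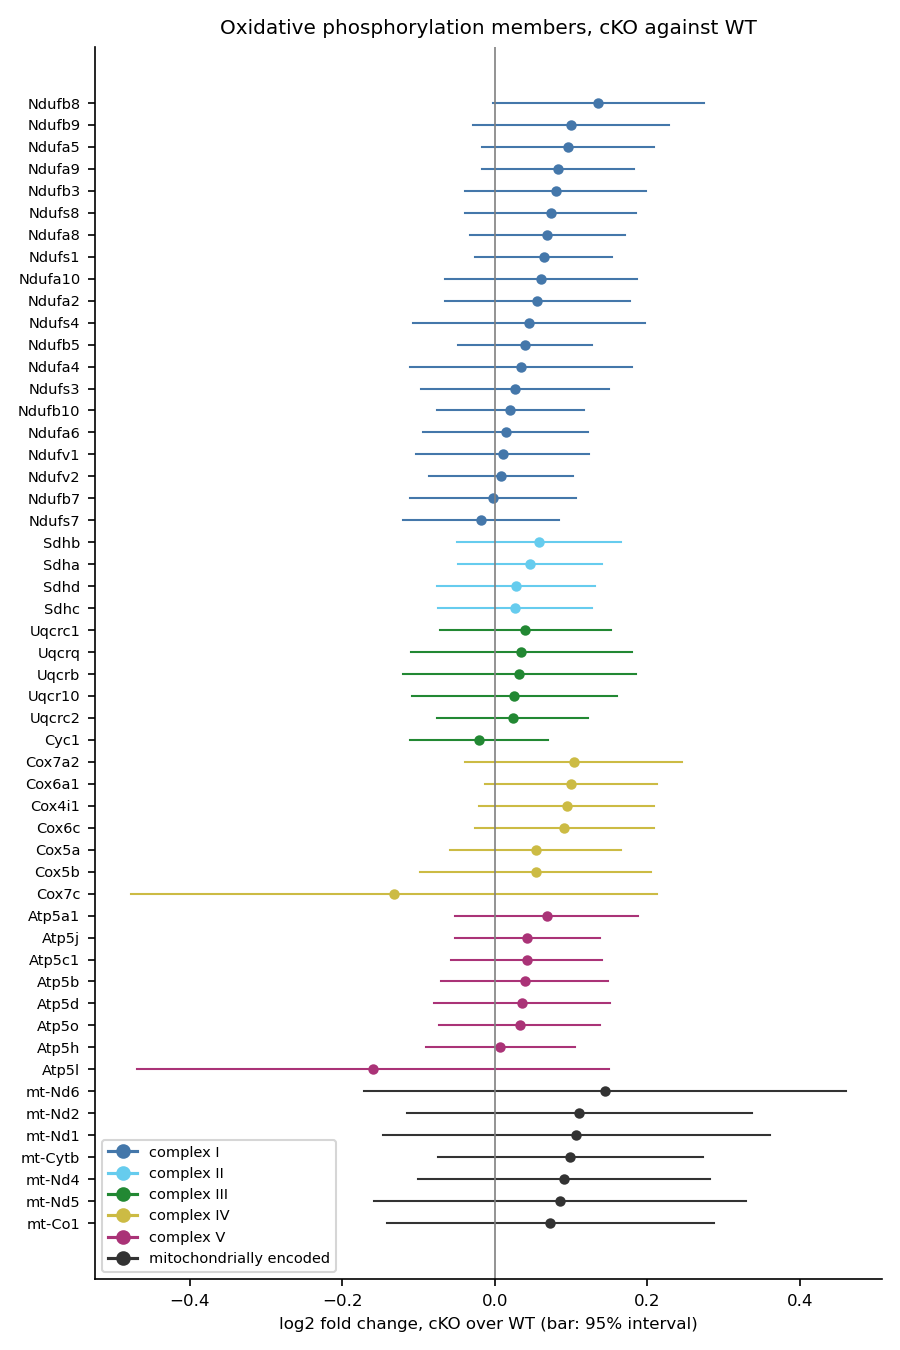
Log2 fold change of cKO over WT (horizontal axis) for the 52 tested members, listed by complex, with mitochondrially encoded members at the bottom. Points are fitted values and bars are 95% intervals, and each interval includes 0, while 47 of the 52 points lie above it.

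Among the mitochondrially encoded members, mt-Co1, the catalytic core of cytochrome c oxidase, and mt-Cytb, the cytochrome b of complex III, were the most abundant. mt-Co1 was at 19942, 18276, 15870.0, 14679, 18976 and 14743 CPM in cKO libraries 1 to 6, against 16421, 19116, 16831, 12901 and 15952 CPM in WT libraries 1 to 5. The highest value was in cKO 1 and the lowest in WT 4, and the groups overlapped widely. mt-Co1 averaged 17081 ± 2276 CPM over the 6 cKO libraries and 16244 ± 2230 CPM over the 5 WT libraries (SD here and below), with a log2 fold change of 0.07 ± 0.10 (SE; edgeR adjusted p = 0.874). mt-Cytb was at 16820.0, 16264, 14519, 13793, 16188 and 13201 CPM in cKO libraries 1 to 6, against 14332, 15967, 14843, 11614 and 13884 CPM in WT libraries 1 to 5. It averaged 15131 ± 1493 CPM in cKO and 14128 ± 1606 CPM in WT. For mt-Cytb the log2 fold change was 0.10 ± 0.08 (SE), with an edgeR adjusted p of 0.751, and again cKO 1 was highest and WT 4 lowest.

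The complex I subunits of the mitochondrial genome, which form the proton-pumping membrane arm, were likewise highest in cKO 1 and lowest in WT 4. mt-Nd1 was at 10388, 8909, 8242, 7401, 9262 and 7201 CPM in cKO libraries 1 to 6, against 7727, 9748, 8469.9, 5948 and 7888 CPM in WT libraries 1 to 5. Values of the groups were interleaved, with WT 2 above all cKO libraries but the first. mt-Nd1 had a log2 fold change of 0.11 ± 0.12 (SE; edgeR adjusted p = 0.831). Averages for mt-Nd2, mt-Nd5 and mt-Nd4 were 6092 ± 697, 6816 ± 1017 and 5512 ± 655 CPM in cKO, against 5641 ± 941, 6424 ± 973 and 5176 ± 638 CPM in WT. Single libraries of these genes ran from 5215 to 7065, from 5571 to 8325 and from 4619 to 6348 CPM in cKO, against 4279 to 6869, 4974 to 7674 and 4269 to 6072 CPM in WT. These ranges overlapped, and the log2 fold changes were 0.11, 0.09 and 0.09.

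mt-Nd6 is the only protein encoded by the light strand of mouse mitochondrial DNA, and it was the least abundant of the 7. It was at 85.3, 77.8, 70.1, 57.6, 73.9 and 62.7 CPM in cKO libraries 1 to 6, against 63.4, 80.4, 71.0, 44.5 and 63.0 CPM in WT libraries 1 to 5. The groups overlapped, with a log2 fold change of 0.14 ± 0.14 (SE) and an edgeR adjusted p of 0.809. Per kilobase of transcript the level of mt-Nd6 was 131 CPM, against 8662 CPM for mt-Nd1, 10809 CPM for mt-Co1 and 12828 CPM for mt-Cytb. The annotated end of mt-Nd6 overlaps that of mt-Nd5 on the other strand, and whether counting used the strand is not stated in the sources used.

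The fold changes of the mitochondrially encoded members depended on which libraries were included. In the 8 male libraries, where WT 2 and WT 5 are the only WT libraries, the median log2 fold change of the 7 was -0.03. In them 1 of 7 (mt-Cytb) was above 0. With sex as a term in the fit the median was -0.04, with 1 of 7 above 0. No cKO library was female, so that fit compares genotypes within the same male libraries and is not a separate result. Without WT 4, a female library that was the lowest in all 7, the median was 0.02 with 6 of 7 above 0. Without cKO 1, the highest library in all 7, it was 0.05, and without WT 2 it was 0.16, with 7 of 7 above 0 in each. Being lowest in WT 4 was a feature of 9.05% of all genes tested and being highest in cKO 1 one of 9.79%, whereas cKO 1 was highest in 7 of 7. In the male libraries 41 of the 45 nuclear members had a log2 fold change above 0, with a median of 0.05, and 3 (Ndufa10, Ndufs1 and Uqcrc1) had all cKO above all WT libraries, as 3.44% of all genes tested there did. The other female libraries, WT 1 and WT 3, had mitochondrially encoded sums of 55473 and 57877 CPM, which lay between those of the male WT libraries, 55261 CPM in WT 5 and 65525 CPM in WT 2.

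**Figure D2:**
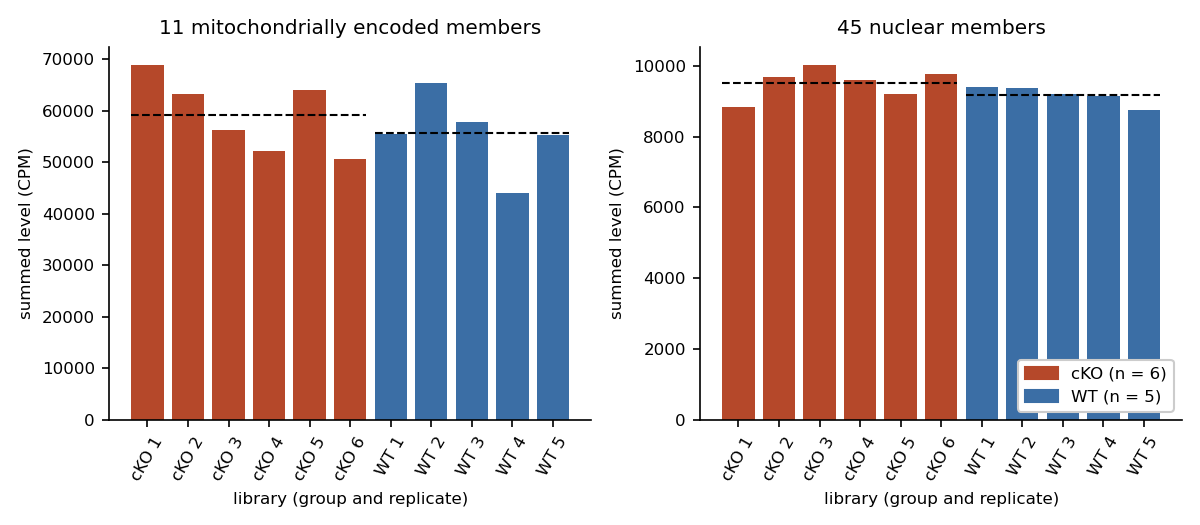
Summed level in CPM (vertical axes, from 0) of the 11 mitochondrially encoded members with a row (left) and the 45 nuclear members (right) in each library, cKO in red and WT in blue. Dashed lines are group means, and the mitochondrially encoded sum spans 44029 to 68973 CPM while the nuclear sum spans 8766 to 10032 CPM.

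Summed over members, the mitochondrially encoded RNA varied far more between libraries than the nuclear RNA, in both groups. The mitochondrially encoded sum was 68973, 63207, 56369, 52310.0, 64145 and 50613 CPM in cKO libraries 1 to 6, against 55473, 65525, 57877, 44029 and 55261 CPM in WT libraries 1 to 5. The nuclear sum was 8834, 9673, 10032, 9609.9, 9217 and 9764 CPM in cKO libraries 1 to 6, against 9393, 9382, 9192, 9139.6 and 8766 CPM in WT libraries 1 to 5. The highest library exceeded the lowest 1.57-fold for the mitochondrially encoded sum and 1.144-fold for the nuclear sum. Their group means were 59270.0 ± 7283 CPM in cKO and 55633 ± 7709 CPM in WT for the first and 9522 ± 428 CPM in cKO and 9175 ± 255 CPM in WT for the second. The classes did not rank the libraries alike: cKO 1 had the highest mitochondrially encoded sum and the second lowest nuclear sum, while cKO 6 had the second lowest mitochondrially encoded sum and the second highest nuclear sum. Other libraries stood on the same side in both, with cKO 2 above the mean of its group and WT 4 below the mean of its group in both sums. The ratio of the sums was 5.18 to 7.81 in cKO and 4.82 to 6.98 in WT. All genes of the mitochondrial chromosome together took 5.06 to 6.79% of the counts in cKO and 4.47 to 6.50% in WT.

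The remaining mitochondrially encoded members had next to no counts. mt-Co2, mt-Co3, mt-Atp6 and mt-Nd4l each had 0 to 2 counts in every library, with mean levels under 0.01 CPM, although the transcripts come from the same polycistronic RNA as the abundant members. Up to 3 counts, a limit of 0.0844 to 0.126 CPM per library, would be compatible with a count of 0, and no fold change is given for them. For counting error only, that limit places each of the 4 far below mt-Nd6 at 44.5 CPM or more. These genes shared nearly their whole coding sequence with an annotated nuclear pseudogene on chromosome 1: of all 50-base words of the coding sequence, 100% in mt-Co2, 99.9% in mt-Co3, 99.5% in mt-Atp6 and 98.8% in mt-Nd4l also occurred in another annotated transcript of GENCODE M21. In mt-Nd1, mt-Nd6 and mt-Cytb no such word was shared, and in mt-Nd2, mt-Nd5, mt-Co1 and mt-Nd4 the shares were 8.19%, 7.61%, 51.1% and 62.2%.

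The stretch below is shown because it carries no base that could tell mt-Co2, a core subunit of complex IV, from its nuclear copy Gm28661. Both lines give coding bases 281 to 400 on build mm10, the first at chrM:7293-7412 on the plus strand and the second at chr1:24615166-24615285 on the minus strand, and no base is in capitals since none differs.
mt-Co2: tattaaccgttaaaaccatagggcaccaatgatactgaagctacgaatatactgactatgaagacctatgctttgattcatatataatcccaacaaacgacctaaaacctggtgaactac
Gm28661: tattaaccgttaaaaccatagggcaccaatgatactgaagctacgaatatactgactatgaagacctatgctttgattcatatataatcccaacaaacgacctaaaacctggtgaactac
Over the 681 aligned of the 684 coding bases of mt-Co2 the copies had 0 differences. Gm28661 itself had 1 to 14 counts per library, so the missing counts of mt-Co2 were not in the row of its copy. For mt-Co3 and mt-Atp6 the copies Gm28437 and Gm10925 had 0 to 2 and 0 to 8 counts. How reads that fit several places were counted is not stated in the sources used, and its part in these levels was not tested.

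The same pattern was present in 2 of the 45 nuclear members. Cox7c, a small subunit of complex IV, and Atp5l, the g subunit of the ATP synthase, shared 100% of their coding 50-base words with other annotated genes and were at 2.27 and 2.70 CPM on average over the 11 libraries. The other 43 nuclear members shared 0 to 73.2% and were at 29.0 to 1348 CPM. Uqcrb, at 73.2%, was the lowest of these 43. Of the 45 nuclear members 25 shared no coding word of 50 bases with another annotated gene. Over the whole transcript, untranslated ends included, the split was less sharp: Cox7c shared 53.0% of its words and Atp5l 84.8%, while Atp5o shared 50.3% at 156 CPM, Atp5h 47.9% at 71.4 CPM and Uqcrb 43.4% at 29.0 CPM. Genes of the pathway lists described below, for which only whole-transcript shares are given here, went both ways. Atp5g2 shared 87.4% at 0.419 to 0.902 CPM, but Slirp shared 93.7% at 27.4 to 35.9 CPM, and Usmg5, sharing 8.46%, was at 6.36 to 11.7 CPM.

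The start of the Cox7c coding sequence is shown with that of its closest copy, Gm10012, to mark in capitals the only differing bases of the stretch. Both lines give coding bases 1 to 120 on build mm10, Cox7c from the exons within chr13:86045825-86046675 on the minus strand and Gm10012 from chr17:25901862-25901981 on the plus strand.
Cox7c: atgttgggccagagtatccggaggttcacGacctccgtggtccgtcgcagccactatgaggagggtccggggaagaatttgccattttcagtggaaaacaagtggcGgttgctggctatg
Gm10012: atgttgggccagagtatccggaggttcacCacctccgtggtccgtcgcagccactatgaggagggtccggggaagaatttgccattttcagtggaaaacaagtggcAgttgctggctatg
Counting from 1 at the first coding base, the differences were G30C and G107A, the Cox7c base first, and the identity over 192 aligned bases was 98.96%. Every coding 50-base word of Cox7c was found in at least 1 of 3 other genes. Gm10012 had 0 to 2 counts per library.

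Atp5l is shown with its copy Gm10221 because, as for mt-Co2, no base of the stretch differs. The lines give coding bases 95 to 214, from the exons within chr9:44913466-44914769 on the minus strand and from chr5:24581649-24581768 on the minus strand, again on build mm10.
Atp5l: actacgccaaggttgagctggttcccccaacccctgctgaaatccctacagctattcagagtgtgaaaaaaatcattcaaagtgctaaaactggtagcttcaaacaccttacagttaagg
Gm10221: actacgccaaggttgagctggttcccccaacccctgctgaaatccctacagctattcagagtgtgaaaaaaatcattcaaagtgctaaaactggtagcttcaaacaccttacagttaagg
No base differed over the 309 aligned of the 312 coding bases, and 14 other genes shared words with Atp5l. Gm10221 had 0 to 1 counts per library.

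**Figure D3:**
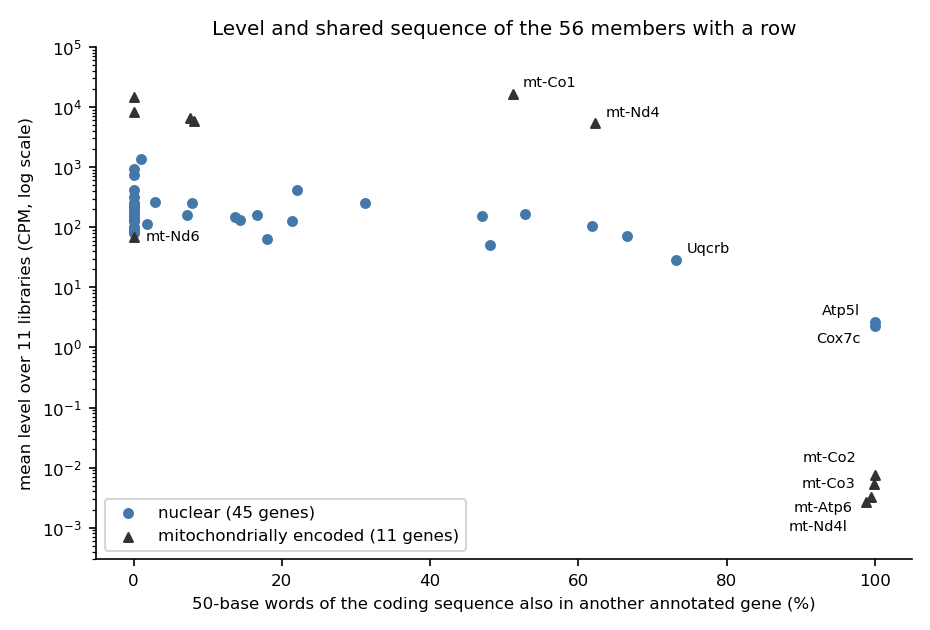
Mean level over 11 libraries in CPM (vertical axis, log scale) against the share of coding 50-base words also found in another annotated gene (horizontal axis, in percent) for the 56 members with a row. The 6 members at 98% or more, of which 4 are mitochondrially encoded (triangles) and 2 nuclear (circles), lie below 3 CPM, and the lowest of the other members is at 29.0 CPM.

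Complex I, the entry point for NADH electrons, was the largest group, with 20 nuclear members. Of these 18 had a log2 fold change above 0, with a median of 0.05 and a range of -0.02 to 0.14. Ndufb8, an accessory subunit of the membrane arm, was at 147, 180.4, 169, 162, 152 and 185 CPM in cKO libraries 1 to 6, against 162, 161, 155, 138 and 139 CPM in WT libraries 1 to 5. Most cKO libraries were above most WT libraries, but cKO 1 and 5 lay within the WT range. Ndufb8 averaged 166 ± 15.3 CPM in cKO and 151 ± 11.8 CPM in WT, which gave a log2 fold change of 0.14 ± 0.07 (SE) with an unadjusted p of 0.0542, the smallest of any member, and an adjusted p of 0.547 (edgeR). Of its coding words 16.6% were shared with Gm20538, an overlapping gene model.

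Ndufa5, an accessory subunit of the peripheral arm, was at 85.6, 105, 103, 100.3, 96.7 and 107 CPM in cKO libraries 1 to 6, against 94.1, 98.0, 92.7, 91.1 and 89.7 CPM in WT libraries 1 to 5. The lowest of all 11 was cKO 1, and the next 4 lowest were WT libraries. For Ndufa5 the log2 fold change was 0.10 ± 0.05 (SE), with an edgeR adjusted p of 0.601. Ndufa4, named for complex I and since assigned to complex IV, was counted here with complex I and left out of the complex IV values. It had the highest level per length of this group, 519 CPM per kilobase. It was at 303, 352, 292, 288, 318 and 368 CPM in cKO libraries 1 to 6, against 319, 338, 328, 279.9 and 298 CPM in WT libraries 1 to 5, and the groups covered nearly the same range. The log2 fold change of Ndufa4 was 0.03 ± 0.07 (SE; edgeR adjusted p = 0.917).

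The core subunits of complex I include those that bind the flavin and the iron-sulphur clusters. Log2 fold changes were 0.06 for Ndufs1, 0.07 for Ndufs8, 0.01 for Ndufv1 and 0.008 for Ndufv2, beside a complex I median of 0.05. Ndufs1, with several iron-sulphur clusters, averaged 165 ± 6.04 CPM in cKO and 158 ± 6.30 CPM in WT. Ndufv1, the flavin-binding subunit, averaged 186 ± 15.1 CPM in cKO and 185 ± 6.54 CPM in WT. Ndufs7 and Ndufb7 were the members with values below 0, at log2 fold changes of -0.02 and -0.002.

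Complex II had all 4 subunits among the members, and all 4 had a log2 fold change above 0, with a median of 0.04. Sdha, the flavoprotein that oxidises succinate, was at 415, 418, 458, 441, 424 and 395 CPM in cKO libraries 1 to 6, against 421, 404, 404, 425 and 405 CPM in WT libraries 1 to 5. Both the highest (cKO 3) and the lowest (cKO 6) values were in cKO. Sdhb, the iron-sulphur subunit, was at 131, 141, 159, 150.3, 141 and 152 CPM in cKO, against 148, 140.0, 138, 142 and 132 CPM in WT, in the same order of libraries. Here too cKO held the highest and the lowest value, and the log2 fold changes were 0.05 ± 0.04 for Sdha and 0.06 ± 0.05 for Sdhb (SE; edgeR adjusted p = 0.799 and 0.769). The membrane anchors Sdhc and Sdhd averaged 97.2 ± 5.10 and 128 ± 7.12 CPM in cKO, against 95.4 ± 4.79 and 126 ± 6.44 CPM in WT.

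Of the 6 nuclear members of complex III 5 had a log2 fold change above 0, with a median of 0.03. Uqcrc1, a core protein of the matrix side, was at 239, 237, 276, 274, 245 and 243 CPM in cKO libraries 1 to 6, against 258, 232, 245, 259 and 234 CPM in WT libraries 1 to 5. cKO 3 and 4 stood above all others, while the remaining cKO libraries lay within the WT range. Uqcrq, a small accessory subunit, was at 139, 172, 160.0, 154, 151 and 194 CPM in cKO and at 162, 167, 157, 151 and 150.3 CPM in WT, in the same order. Uqcr10, the smallest of the named members of this complex by transcript length, was at 134, 172, 150.4, 138, 149 and 165 CPM in cKO and at 150.3, 155, 159, 136 and 144 CPM in WT. In both of these small subunits cKO 1 was the lowest of all 11 libraries, and cKO 6 or cKO 2 the highest. Their log2 fold changes were 0.04 and 0.03, and that of Uqcrc1 was 0.04 ± 0.05 (SE; edgeR adjusted p = 0.868). Cyc1, the cytochrome c1 subunit, was the member with a value below 0, at -0.02.

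Complex IV, counted without Ndufa4 (at 0.03), had the highest median fold change of the nuclear groups, 0.09 on the log2 scale. Here 6 of 7 members were above 0, and Cox7c, at 2.19 ± 0.527 CPM in cKO and 2.38 ± 0.218 CPM in WT, was below 0. Cox6a1, a regulatory subunit, was at 384, 461, 427, 430.4, 395 and 458 CPM in cKO libraries 1 to 6, against 407, 418, 376, 391 and 396 CPM in WT libraries 1 to 5. Apart from cKO 1 and 5, the cKO libraries were above every WT library. Cox6a1 averaged 426 ± 31.6 CPM in cKO and 398 ± 16.2 CPM in WT, a log2 fold change of 0.10 ± 0.05 (SE; edgeR adjusted p = 0.585). Cox4i1, the subunit through which ATP regulates the enzyme, was at 734, 843, 806, 756, 724 and 759 CPM in cKO and at 738, 791, 724, 663 and 691 CPM in WT, in the same order. The groups overlapped, with a log2 fold change of 0.09 ± 0.05 (SE; edgeR adjusted p = 0.613), and Cox4i1 had the highest level per length of all nuclear members, 978 CPM per kilobase.

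In complex V 7 of 8 members had a log2 fold change above 0, with a median of 0.04. Atp5a1, the alpha subunit of the catalytic head, was at 904, 900.1, 1075, 1045, 967 and 915 CPM in cKO libraries 1 to 6, against 939.5, 913, 902, 991 and 869.7 CPM in WT libraries 1 to 5. cKO 3 and 4 were again above all WT libraries, with a log2 fold change of 0.07 ± 0.06 (SE) and an edgeR adjusted p of 0.751. Atp5b, the beta subunit with the catalytic site, was the most abundant nuclear member. It was at 1265, 1306, 1502, 1437, 1317 and 1361 CPM in cKO and at 1361, 1302, 1307, 1399 and 1269 CPM in WT, in the same order, with cKO 3 highest and cKO 1 lowest. Atp5l was at 3.17, 2.47, 2.37, 2.15, 2.60 and 2.61 CPM in cKO and at 2.68, 3.40, 3.14, 1.97 and 3.11 CPM in WT, a log2 fold change of -0.16 ± 0.15 (SE; edgeR adjusted p = 0.781). Its counts, 62 to 107 per library, limit the precision of that value.

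The nuclear members did not share 1 order of libraries, and the members that were highest in different libraries had different median transcript lengths. cKO 3 was the highest library for 15 of the 45, among them Atp5a1, Atp5b, Sdha, Sdhb, Uqcrc1, Uqcrc2 and Ndufv1, with a median transcript length of 1661 bases. cKO 6 was highest for 16, such as Ndufb8, Ndufa4, Cox5b and Uqcrq, with a median length of 835 bases, and cKO 2 for 11, such as Cox4i1, Cox6a1, Cox7a2 and Uqcr10, with a median of 682 bases. The lengths overlapped, since Uqcrq and Ndufv2, at 1521 and 1697 bases, were highest in cKO 6, Ndufs4, at 1698 bases, in cKO 2, and Atp5o, at 838 bases, in cKO 3. cKO 1 was lowest for 20 of the 45, or 44.4%, against 11.1% of all genes tested.

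For the 24 nuclear members up to 1000 bases long, the median level relative to the mean of the 11 libraries was 0.14 in cKO 6, 0.10 in cKO 2 and -0.10 in cKO 1 on the log2 scale. All 767 tested protein-coding genes of that length gave 0.11, 0.09 and -0.10 in the same libraries. For the 21 longer nuclear members the highest median was 0.11, in cKO 3, where coding genes over 1000 and up to 2000 bases gave 0.01. In cKO 1 the longer nuclear members were low too, at -0.09, beside -0.07 for coding genes over 1000 and up to 2000 bases. In cKO 3 the short members were at 0.05 and the short coding genes at -0.02. The part of transcript length in these levels and in the comparison of cKO with WT was not tested.

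cKO 6 and cKO 2 also had the highest levels of astrocyte markers. The summed level of the 5 astrocyte markers was 2585, 4317, 2834, 3309, 2754 and 5278 CPM in cKO libraries 1 to 6, against 3052, 2545, 2430.0, 2373 and 2354 CPM in WT libraries 1 to 5, and no marker of the list was at 0 in every library. The summed level of the 5 microglial markers was 385 to 568 CPM in cKO, highest in cKO 2, and 385 to 431 CPM in WT. Without cKO 6 the nuclear members had 32 of 45 fold changes above 0 and a median of 0.03, and without cKO 2 they had 36 of 45 and a median of 0.04. Other libraries moved the nuclear median as much: it was 0.065 without cKO 1, with 41 of 45 above 0, and 0.025 without WT 5, with 36 of 45 above 0. The part of these markers in the levels of the members was not tested.

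**Figure D4:**
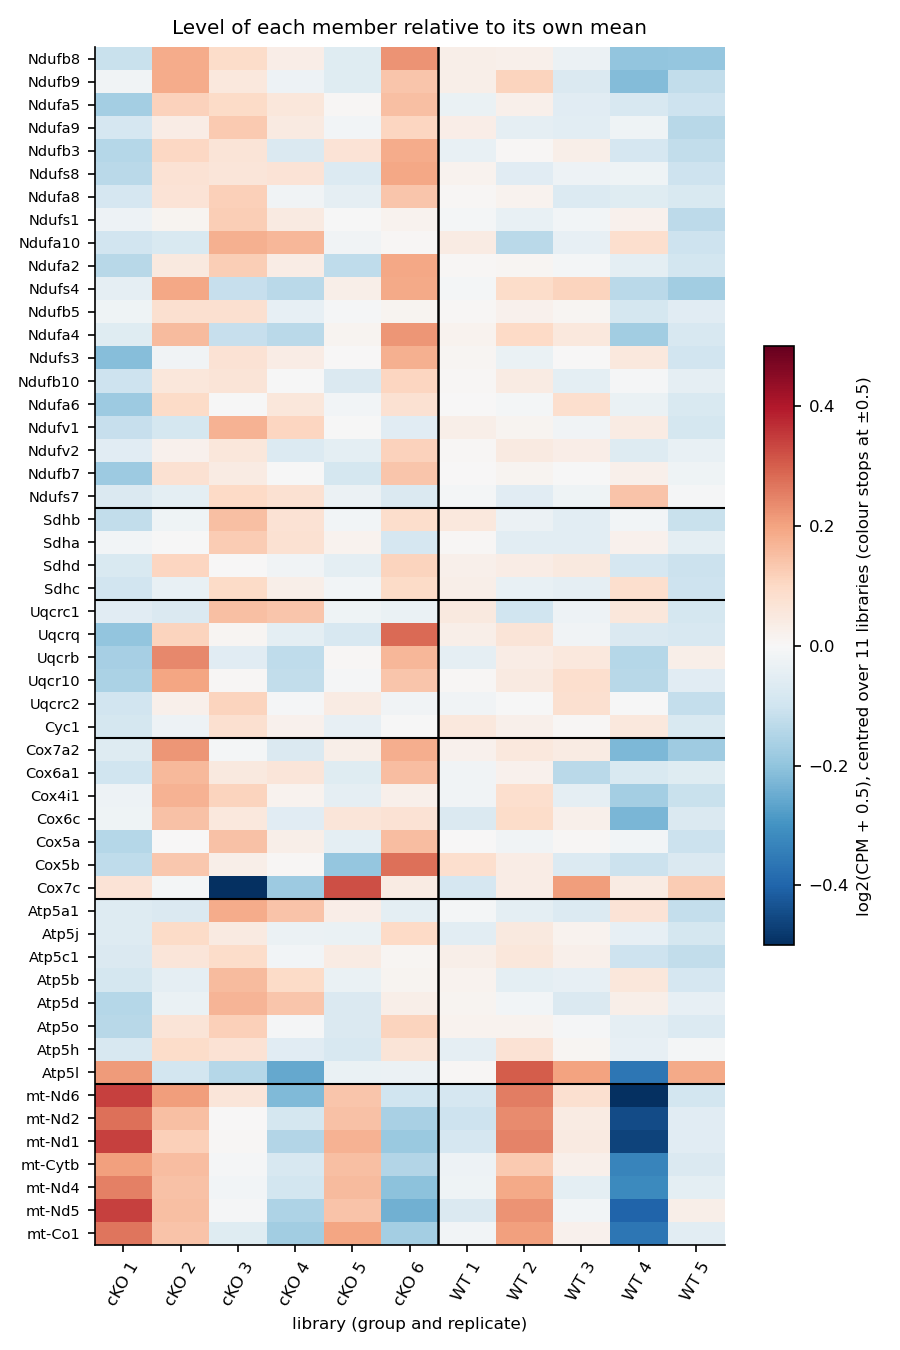
Level of each of the 52 tested members (rows, by complex) in each library (columns, cKO 1 to 6 then WT 1 to 5), as log2(CPM + 0.5) minus the mean of that gene over the 11 libraries. Red is above and blue below the gene's own mean, with the colour ending at ±0.5, and the 7 mitochondrially encoded members at the bottom are red in cKO 1 and blue in WT 4.

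Promoters of nuclear members hold binding motifs for NRF1, a transcription factor known for regulating respiratory chain genes, and all nuclear members with a matched promoter were searched for them. RefSeq promoters of build GRCm38.p6, from 250 bases before to 50 after the start, were matched by symbol for 34 of the 45 nuclear members, giving 38 promoters. Atp5a1, Cox4i1, Cox6c, Cyc1, Ndufa2, Ndufb9, Ndufs1, Sdhc, Uqcrb, Uqcrc2 and Uqcrq were not matched. The NRF1 motif, GCGCA followed by any base and GCGC, searched on both strands like the others, was in 11 of the 38, or 28.9%, against 4.60% of all 32851 promoters. It was found in 10 genes, namely Atp5c1, Atp5h, Atp5o, Cox6a1, Ndufa5, Ndufa6, Ndufa8, Sdha, Sdhd and Uqcrc1. The YY1 motif AAGATGGCG was in 10.5% of the members' promoters and 1.40% of all, CCAAT in 31.6% and 37.4%, and the ETS motif CCGGAAGT in 5.26% and 3.89%. No motif contains another, and a match is a description of sequence and not of binding.

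Sdha and Cox6a1 are shown as the complex II and complex IV members described above with more than 1 match, at chr13:74350191-74350490 and chr5:115348909-115349208, both on the minus strand of GRCm38.p6. Uqcrc1, a complex III member described above, also held 2 matches and is not shown. Capitals mark the matches to the NRF1 motif.
Sdha: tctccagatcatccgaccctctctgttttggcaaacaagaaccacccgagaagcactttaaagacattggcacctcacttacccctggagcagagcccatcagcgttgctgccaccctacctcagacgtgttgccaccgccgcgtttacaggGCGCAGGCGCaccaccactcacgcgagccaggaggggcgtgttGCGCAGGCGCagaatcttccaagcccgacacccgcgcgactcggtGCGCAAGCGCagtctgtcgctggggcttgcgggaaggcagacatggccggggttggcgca
Cox6a1: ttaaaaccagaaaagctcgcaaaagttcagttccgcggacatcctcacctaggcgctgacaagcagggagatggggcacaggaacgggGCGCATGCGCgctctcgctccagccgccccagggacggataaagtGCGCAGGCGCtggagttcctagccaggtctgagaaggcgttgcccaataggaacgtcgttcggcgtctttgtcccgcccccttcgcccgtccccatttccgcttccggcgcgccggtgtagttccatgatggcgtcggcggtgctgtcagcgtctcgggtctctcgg
Sdha held 3 matches and Cox6a1 held 2, while the highest libraries of these genes were cKO 3 and cKO 2.

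Other genes of the pathway, taken from lists chosen with earlier results of these data known, had no call either. Of 40 further nuclear genes, all tested, 25 had a log2 fold change above 0, with a median of 0.03, and 0 passed the adjusted threshold. Most encode subunits, but the list also holds cytochrome c (Cycs) and an inhibitor of the ATP synthase (Atpif1). Ndufb2, a complex I accessory subunit, averaged 45.1 ± 2.32 CPM in cKO and 49.5 ± 3.19 CPM in WT, with an unadjusted p of 0.0211 and an adjusted p of 0.476 (edgeR). Ndufb11, another one, averaged 100.7 ± 5.62 CPM in cKO and 92.8 ± 5.84 CPM in WT, so that subunits of 1 complex pointed in both directions. Isoforms known from muscle and lung were low here, with Cox6a2 at 2.35 to 3.71 CPM, Cox8b at 0.321 to 0.811 CPM and Cox4i2 at 1.02 to 2.02 CPM over the 11 libraries.

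Of 44 tested assembly factors, which build the complexes without being part of them, 22 had a log2 fold change above 0 and 22 below, with a median of 0.0002. Ndufaf1, a complex I assembly factor, averaged 20.7 ± 1.46 CPM in cKO and 18.9 ± 0.654 CPM in WT (edgeR adjusted p = 0.534), and Foxred1, another, averaged 35.0 ± 1.57 CPM in cKO and 37.2 ± 2.71 CPM in WT. Of 29 tested genes for mitochondrial DNA maintenance, transcription and RNA processing 13 were above 0, with a median of -0.05. Polg, the mitochondrial DNA polymerase, averaged 64.7 ± 2.74 CPM in cKO and 71.6 ± 4.69 CPM in WT, a log2 fold change of -0.14 ± 0.05 (SE) with an unadjusted p of 0.0087 and an adjusted p of 0.416 (edgeR). Fastk, of a family of mitochondrial RNA-binding proteins, averaged 74.7 ± 3.08 CPM in cKO and 80.5 ± 3.31 CPM in WT.

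Of 14 tested regulators of mitochondrial biogenesis 5 were above 0, with a median of -0.03. Pprc1, a coactivator related to PGC-1 proteins, averaged 24.3 ± 1.495 CPM in cKO and 26.9 ± 1.23 CPM in WT, and Esrra, a nuclear receptor of respiratory genes, averaged 48.8 ± 3.45 CPM in cKO and 51.6 ± 1.84 CPM in WT (edgeR adjusted p = 0.441 and 0.653). Nrf1 itself averaged 15.9 CPM in cKO and 16.4 CPM in WT. Of 24 listed mitochondrial ribosomal and transfer RNAs 16 had a row and 9 were tested, of which 7 were above 0, with a median of 0.16. The mitochondrial ribosomal RNAs mt-Rnr1 and mt-Rnr2 were at 11.7 to 25.9 CPM and 16.5 to 36.3 CPM over the 11 libraries, both lowest in WT 4. mt-Tw, a transfer RNA, averaged 6.49 ± 0.961 CPM in cKO and 5.63 ± 0.581 CPM in WT, and mt-Tq averaged 0.926 ± 0.317 CPM in cKO and 0.749 ± 0.170 CPM in WT.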

How the data were processed

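The deposited table holds whole-number counts per Ensembl gene, used as the authors deposited them. Libraries were made with a strand-marking preparation of polyadenylated RNA, per the labels' protocols, and bcl2fastq 2.17.1.14 and build mm10 are named, per the submitters' processing notes. The aligner, the counting tool, its annotation, and its handling of strand and of reads that fit several places, are not stated in the sources used here. Of the 30681 genes 30566 matched a symbol.

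Genes with low counts were removed by filterByExpr. edgeR's 2-sided robust quasi-likelihood test with TMM factors and Benjamini-Hochberg adjustment (threshold 0.05) was run over the other 16587. The common biological coefficient of variation was 9.56% and the median SE of a log2 fold change 0.08. No replicate pair agreed within sampling noise (chi-square per degree of freedom of at least 5.31). On simulated counts for 16587 genes, the same test recovered 48% of genes changed 1.25-fold, 64% at 1.5-fold, 92% at 2-fold and 100% at 3-fold. It made 11 false calls. The changed genes were drawn at random from all genes tested, without a simulated sex difference. These rates are therefore not those of the members, whose median SE was 0.05.

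The members and lists were chosen with earlier results of these data known. Values per library or ranges are given for the mitochondrially encoded members, and values per library for Dclk3 and, per complex, the 2 nuclear members of smallest p and the one of highest level per length. The 2 genes of smallest p are named per list, and other genes named were chosen after their values were seen. Level per length used the principal transcript of GENCODE M21, in which shared 50-base words were searched. Xist and Y-linked genes gave the sex of a library. Alternatives were other scalings, no filter, a replicate block, DESeq2, limma-voom, 1 surrogate variable, a sex term, male libraries only and each library left out. Versions were DESeq2 1.42.0, edgeR 4.0.16, limma 3.58.1 and sva 3.50.0 under R 4.3.3.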

Additional observations from a re-analysis of the deposited data

Results flagged for a closer look

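In 2 of the 110 groups of libraries examined (the cKO and the WT libraries for each of the 52 tested members, for Dclk3 and for the nuclear and mitochondrially encoded sums), 1 library stood apart from the rest of its group, and chance gives such a gap in about 1 of 20 groups. Ndufs7, an iron-sulphur subunit of complex I, was at 92.4 CPM in WT 4, while the other 4 WT libraries were at 80.6 to 83.6 CPM. Cox5a, a nuclear subunit of complex IV, was at 118.7 CPM in WT 5, while the other 4 WT libraries were at 126 to 128 CPM.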

How the results depend on the processing

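No alternative called a member: the lowest adjusted p of a member was 0.201, for Ndufa5 without cKO replicate 1. Over all genes the count of calls was 0, against 62 with DESeq2, 3 without a filter on low counts, 2 with 1 surrogate variable and 1 with library totals only. Leaving out 1 library gave 0 to 14 calls, with 14 without WT replicate 5, 2 without WT replicate 2 and 1 without WT replicate 1. In the 8 male libraries, with WT 2 and WT 5 as the only WT libraries, 3 members had all cKO above all WT libraries. These were Ndufa10, Ndufs1 and Uqcrc1, against 0 members in all 11 libraries, and 3.44% of 17089 genes did so in the male libraries. Of 441 values of single genes under alternatives 418 kept sign and side and 23, in 9 genes, changed sign, with none gaining a call. With a sex term the log2 fold changes were -0.042 for mt-Nd1, -0.035 for mt-Nd2, -0.038 for mt-Co1, -0.025 for mt-Nd4, -0.078 for mt-Nd5 and -0.0093 for mt-Nd6. In male libraries only they were -0.040, -0.033, -0.036, -0.023, -0.075 and -0.0071 in the same order. No cKO library was female, so both fits compare genotypes within the same male libraries and are not separate results. With library totals only Uqcr10 was at -0.0018 and 30 of 45 nuclear members were above 0, while the median of all genes was -0.03. Leaving out 1 library gave -0.0098 to 0.065 for Ndufa4, -0.024 to 0.078 for Uqcrq, -0.012 to 0.061 for Uqcr10 and -0.0035 to 0.14 for mt-Co1, with values below 0 without cKO replicate 6 (Ndufa4, Uqcrq and Uqcr10), cKO replicate 2 (Uqcr10) and WT replicate 4 (Ndufa4, Uqcr10 and mt-Co1). The cause was not tested. Replicate numbers did not pair the libraries: same-numbered cKO and WT libraries had deviations from their group means correlated at -0.32, -0.10, -0.14, 0.21 and 0.11, and 1 of 5 correlated best with its own number. With the replicate block there were 0 calls, and the median was 0.14 for mitochondrially encoded and 0.03 for nuclear members. In that fit 4 of the 7 mitochondrially encoded had an unadjusted edgeR p under 0.05, beside 1332 of 16587 genes. Number 6 occurs in cKO alone, so cKO 6 does not inform that comparison. Leaving out cKO 6 without a block also gave a median of 0.14, with 0 of the 7 at an unadjusted edgeR p under 0.05. With the block Ndufa4, Uqcrq and Uqcr10 were at -0.011, -0.026 and -0.0037. The rows of mt-Co2, mt-Co3, mt-Atp6 and mt-Nd4l, at 0 to 2 counts, are too shallow for any comparison.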
